A study of Mus musculus with 24 samples.

Results

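The BCL2 family genes that decide between survival and death of a cell were examined in mouse oocytes grown in culture under 5% O2 and under 20% O2. All 10 listed genes were found by name, 1 row each, among the 16572 genes of the expression table. They comprise 4 survival members (Bcl2l10, Mcl1, Bcl2 and Bcl2l1) and 6 death members, of which 2 are effectors (Bax and Bak1) and 4 are BH3-only genes (Bbc3, Pmaip1, Bid and Bad). The rule takes them by name and uses no measured value. Both conditions held more survival than death transcript per length, and most of it was Bcl2l10, without which the ratio was 3.02 in IV 5% O2 and 2.54 in IV 20% O2. In IV 5% O2, Bcl2l1 was higher by at least 2-fold, whereas Bcl2 was lower by at least 2-fold. The BH3-only gene Bbc3, with no reads in IV 20% O2, was also called higher, but its call follows from the filter on low values. The counts of called members were near the shares of all genes, and with a larger pseudocount or a stricter filter only Bcl2l1 was called.

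Proteins of this family meet at the outer membrane of mitochondria. The effectors BAX and BAK form pores in that membrane and let cytochrome c out into the cytosol, where it starts the caspase cascade. Survival members bind the effectors and hold them inactive. BH3-only proteins respond to damage or starvation and either block the survival members or activate the effectors directly. In the ovary, the family is known for setting how many primordial follicles are laid down and kept, and for removing oocytes with damaged DNA, in which TAp63 switches on Bbc3 and Pmaip1.

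The study cultured oocytes from dissociated ovaries of mice aged 7 days. Early in culture, theca-like ovarian cells grew beside the oocytes, which were not enclosed in follicles. Oocytes of class IV, the largest size class, were collected. The labels name the strain as C57BL/6 Barb, whereas the methods of the study describe a cross with SV129. Oocytes of the IV 5% O2 group were grown for 9 days, those of the IV 20% O2 group for 14 days, and the medium was renewed more often in 5% O2, so oxygen, culture time and feeding cannot be told apart. The labels give a diameter of 60 to 70 μm for both groups, whereas the methods of the study give a smaller range for the IV 20% O2 oocytes. RNA-seq was made in 2 libraries per group from pooled oocytes, total RNA was used after depletion of ribosomal RNA, and no drug was added to either group. The deposited table holds 1 pooled column per group, so no difference below has a check between replicates, and neither SDs nor p-values are given.

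The values are counts of reads scaled to the depth of a column (RPM), recovered from the log2 values. The depth was 132185258 reads in IV 5% O2 and 40875359 reads in IV 20% O2. Where no read was counted, the limit is taken as 3 reads, which is 0.0227 RPM for IV 5% O2 and 0.0734 RPM for IV 20% O2. Intervals are exact 95% intervals on the reads, Poisson for a level and Clopper-Pearson for a ratio, and they cover counting error only. Levels of different genes were compared after division by the length of their annotated exons (RPM per kb). Differences are given on log2(RPM + 1), IV 5% O2 minus IV 20% O2, a scale that understates the change of low genes. Markers of the oocyte were abundant in both columns: the 11 oocyte markers summed to 9359 RPM in IV 5% O2 against 13209 RPM in IV 20% O2, and 3 of them (Zp2, Zp3 and Kit) were at least 2-fold lower in IV 5% O2.

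Of the 10 members, 9 had a mean of at least 1 RPM and were compared; Bak1, with a mean of 0.783 RPM, fell below that filter. At least 2-fold higher in IV 5% O2 were 2 of the 9, Bcl2l1 and Bbc3, where 18.7% of the 14704 genes compared were. At least 2-fold lower was 1 of the 9, Bcl2, where 9.22% of all genes were. The counts of members are thus near the background in both directions. Bbc3 passed the filter only through IV 5% O2, and with no reads in IV 20% O2 any gene that passes is at least 2-fold higher, so its call follows from the filter. By any amount, 6 of the 9 members compared were higher in IV 5% O2 and 3 were lower, beside 62.6% and 37.4% of the genes compared. Bak1, below the filter, was higher too. The median difference on log2(RPM + 1) was 0.58 for the 9 members and 0.26 for all genes. The 9 include Bbc3, whose high value was set by the filter, so this median is no measure of a shift of the family. The excess of higher genes depends on scaling: of the genes at least 2-fold apart, 67.0% were higher with RPM, 48.9% after median-ratio scaling and 49.6% after quantile normalization. The median of all genes moved to 0.00 and 0.06 under these scalings. Bcl2l1 and Bcl2 kept their 2-fold differences under both scalings, and Mcl1 was the member that turned its sign. Bbc3 kept its call too, but a gene with no reads stays at or near the floor under either scaling, so that is no check of its call. With a pseudocount of 5 RPM, however, Bbc3 was at 0.58 and Bcl2 at -0.76, and with a mean of at least 5 RPM neither was compared, which leaves Bcl2l1 alone in both settings.

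**Figure D1:**
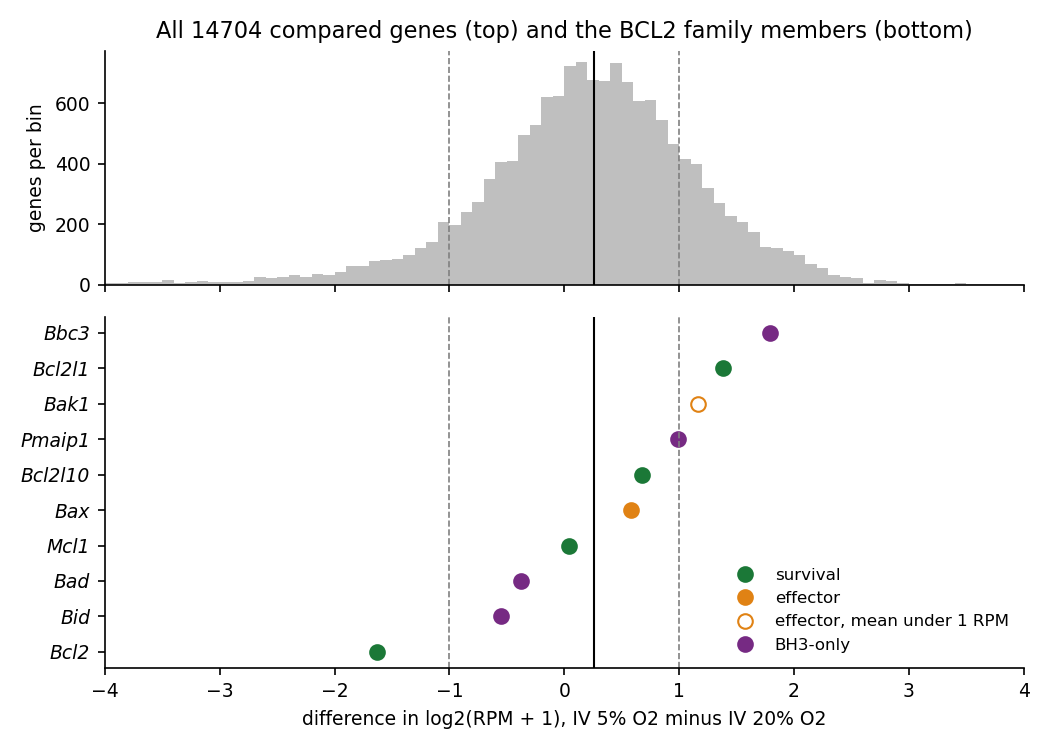
Differences in log2(RPM + 1), IV 5% O2 minus IV 20% O2. The upper panel counts all 14704 compared genes per bin of the difference (76 lie beyond the axis, which ends at 4 in either direction) and the lower panel gives 1 point per member, with the open symbol for Bak1, whose mean was under 1 RPM. The solid line is the median of all genes, 0.26, and the dashed lines mark 2-fold. Bbc3, Bcl2l1 and the open symbol of Bak1 lie to the right of the upper dashed line, Bcl2 to the left of the lower one, and Pmaip1, at 0.99, just inside.

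Bcl2l10 was the most abundant member in both groups. Its mouse product, also called Diva or Boo, is found chiefly in the ovary and testis, and both survival and death activity have been ascribed to it. The gene (chr9:75347758-75351649, + strand, GRCm38) received 107181 reads in IV 5% O2 and 20757 in IV 20% O2, or 811 and 508 RPM. Per length, its level of 665 RPM per kb in IV 5% O2 was above that of 99.9% of all genes, and its level of 416 RPM per kb in IV 20% O2 above that of 99.7%. The level was 1.60-fold higher in IV 5% O2 (counting interval 1.57 to 1.62), a difference of 0.67 on log2(RPM + 1) and of 0.42 relative to the median gene. Bcl2l10 made up 93.3% of the summed survival level per length in IV 5% O2 and 93.1% in IV 20% O2. It stood 24.5-fold above the next member, Bcl2l1, in IV 5% O2 and 20.5-fold above the next member, Mcl1, in IV 20% O2.

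Mcl1 encodes a short-lived survival protein that growing oocytes need. With 71.1 RPM in IV 5% O2 against 69.3 RPM in IV 20% O2, it was the member closest to equal levels. The ratio of its reads, 1.03, had a counting interval from 0.984 to 1.07, so the difference was within counting error. Its difference on log2(RPM + 1) was 0.04, which became -0.25 under median-ratio scaling and -0.17 under quantile normalization. Relative to the median gene, the difference with RPM was -0.22.

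Bcl2l1, the gene of BCL-XL, showed the largest difference of the abundant members. From 16421 reads its level in IV 5% O2 was 124 RPM, and from 1918 reads in IV 20% O2 it was 46.9 RPM. This is 2.65-fold higher in IV 5% O2 (2.52 to 2.78), or 1.39 on log2(RPM + 1), a larger difference than that of 90.5% of the genes compared. Per length, Bcl2l1 was above Mcl1 in IV 5% O2, with 27.1 against 20.8 RPM per kb, and below it in IV 20% O2, with 10.2 against 20.3 RPM per kb, and in neither group did the counting intervals of the 2 genes overlap. The annotation holds 9 transcripts of Bcl2l1, and splicing yields a long form that protects and a short form that promotes death. The table sums all transcripts of a gene, so the forms were not separated.

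Bcl2, the founding member, was the scarcest survival gene and the one that went the other way. It had 126 reads in IV 5% O2 and 207 in IV 20% O2, although the IV 5% O2 column is the deeper one. The levels were 0.953 RPM (0.794 to 1.13) and 5.06 RPM (4.40 to 5.80), so that Bcl2 was 5.31-fold higher in IV 20% O2 (4.24 to 6.68). The difference was -1.63 on log2(RPM + 1), lower than that of all but 3.96% of the genes compared. Per length, Bcl2 was the lowest of the 10 members in IV 5% O2, at 0.104 RPM per kb, and ranked 7 of 10 in IV 20% O2, at 0.553 RPM per kb. Its exons, 9157 bases in all, share 6.09% of their bases with the antisense gene D630008O14Rik, whose level was not analysed here.

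**Figure D2:**
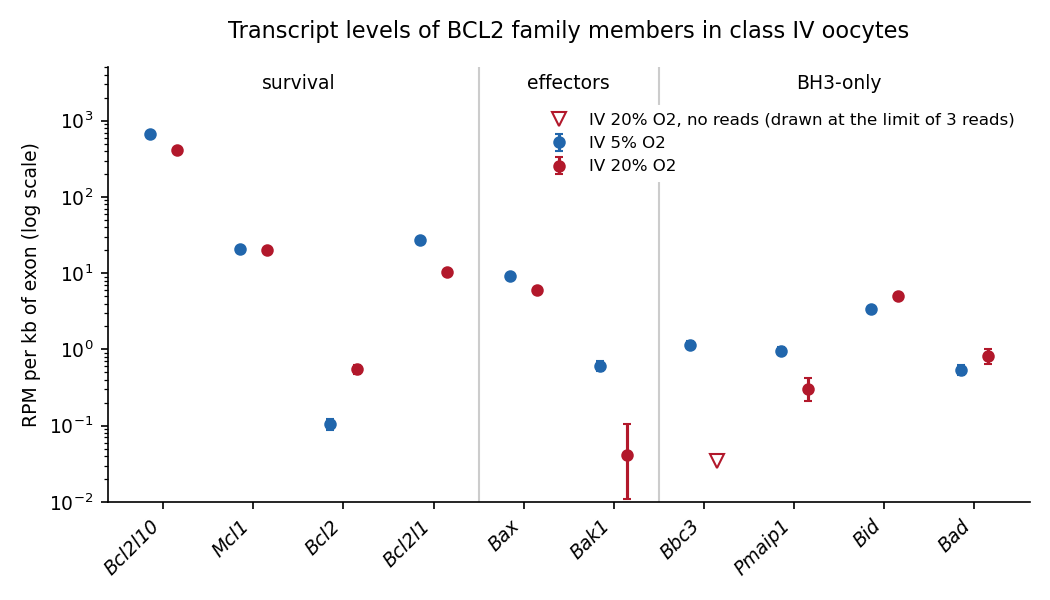
Levels of the 10 members in RPM per kb of annotated exon, on a log scale, with 1 point per pooled column (blue for IV 5% O2, red for IV 20% O2) and bars for the 95% Poisson interval of the reads, which do not include any spread between libraries. The open triangle is Bbc3 in IV 20% O2, with no reads, drawn at the limit of 3 reads. Bcl2l10 stands above all other members in both groups, and the low death genes Bak1, Bbc3 and Pmaip1 stand higher in IV 5% O2.

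Bax was the main effector in both groups. With 1926 reads in IV 5% O2 and 385 in IV 20% O2, it was at 14.6 and 9.42 RPM, 1.55-fold higher in IV 5% O2 (1.39 to 1.73). The difference on log2(RPM + 1) was 0.58, and 0.32 relative to the median gene. Bax (chr7:45461697-45466898, - strand, GRCm38) shares 12.2% of its exon bases with Gm45808 on the same strand, whose reads the table may divide between the genes.

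Bak1, the other effector, was close to the limit of detection in IV 20% O2. It had 194 reads in IV 5% O2 and 4 reads in IV 20% O2, where the IV 5% O2 level would have given 60.0 reads. The levels were 1.47 RPM (1.27 to 1.69) and 0.0979 RPM (0.0267 to 0.251), a ratio of 15.0 with a counting interval from 5.76 to 55.6. Bak1 made up 6.19% of the summed effector level per length in IV 5% O2 and 0.676% in IV 20% O2, and Bax the rest.

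Bbc3 encodes PUMA, the BH3-only protein that binds survival proteins broadly. It had 325 reads in IV 5% O2, or 2.46 RPM (2.20 to 2.74), and no reads in IV 20% O2. At the IV 5% O2 level, 100.5 reads would have been counted in the IV 20% O2 column. Set against the limit of 3 reads in the IV 20% O2 column, the level of Bbc3 in IV 5% O2 was 33.5-fold higher. The exact counting interval of the ratio, which also covers the error of the 325 reads, begins at 27.1. Its difference of 1.79 on log2(RPM + 1) rests on the pseudocount, and was larger than that of 95.8% of the genes compared.

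Pmaip1 encodes NOXA, which mainly opposes MCL1, and with Bbc3 it is the known target of TAp63 in oocytes. It had 348 reads in IV 5% O2 and 34 reads in IV 20% O2, or 2.63 RPM (2.36 to 2.92) and 0.832 RPM (0.576 to 1.16). The ratio of 3.17 had a counting interval from 2.22 to 4.64, but on log2(RPM + 1) the difference of 0.99 was just short of 2-fold. With a pseudocount of 0.1 RPM it passed.

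Bid and Bad were the BH3-only genes with lower values in IV 5% O2. Bid, which caspase-8 cleaves to carry a death signal from the cell surface to mitochondria, was at 12.1 RPM in IV 5% O2 against 18.1 RPM in IV 20% O2. It was thus 1.50-fold higher in IV 20% O2 (1.37 to 1.64). Bad, which 14-3-3 proteins hold in the cytosol while growth factors are present, was at 1.38 RPM and 2.08 RPM, 1.51-fold higher in IV 20% O2 (1.15 to 1.96). On log2(RPM + 1) these differences were -0.55 for Bid and -0.37 for Bad.

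Both genes overlap an abundant neighbour on the other strand. Bid shares 17.7% of its exon bases with Bcl2l13, which was at 159 RPM in IV 5% O2 against 135 RPM in IV 20% O2. If the reads of Bcl2l13 lay evenly on its exons, 11.0 RPM and 9.34 RPM of them would fall on the shared bases, beside 12.1 and 18.1 RPM given for Bid itself. Bad shares 20.5% of its exon bases with Gpr137, whose even share there would be 2.19 RPM in IV 5% O2 against 2.04 RPM in IV 20% O2, beside 1.38 and 2.08 RPM for Bad. The libraries keep strand, but whether strand was used in counting is not given in the sources used here, and its part in the values of Bid and Bad was not tested. Bak1 also overlaps a gene of the other strand, Ggnbp1, which was at 1.79 and 0.514 RPM. Annotated entries of Ggnbp1 share 7.35% and 18.2% of the exon bases of Bak1. Their even shares there would be 0.0181 and 0.0394 RPM in IV 20% O2, beside 0.0979 RPM for Bak1. In IV 5% O2 they would be 0.0633 and 0.137 RPM, beside 1.47 RPM. The part of Ggnbp1 reads in the level of Bak1 was not tested. No window of 100 bases in the exons of the 10 members occurred elsewhere in the genome.

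The order of the members per length was similar at the top and differed below. In both groups it ran from Bcl2l10 through Bcl2l1 and Mcl1, in either order, to Bax and then Bid. Below these came Bbc3, Pmaip1, Bak1, Bad and Bcl2 in IV 5% O2, at 1.16, 0.964, 0.610, 0.538 and 0.104 RPM per kb. In IV 20% O2 the order was Bad, Bcl2, Pmaip1, Bak1 and Bbc3, at 0.813, 0.553, 0.304, 0.0407 and 0 RPM per kb. Neighbours whose counting intervals overlapped were Bbc3 with Pmaip1 and Bak1 with Bad in IV 5% O2, and Bax with Bid and Bak1 with Bbc3 in IV 20% O2.

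Summed per length, the survival members reached 713 ± 4.02 RPM per kb in IV 5% O2 and 447 ± 5.73 RPM per kb in IV 20% O2, where the error is the 95% counting interval. The effectors summed to 9.85 ± 0.422 and 6.02 ± 0.598 RPM per kb. With RPM, the survival sum was higher in IV 5% O2 by 1.59-fold (1.57 to 1.62) and the effector sum by 1.64-fold (1.47 to 1.83), sums that are mostly Bcl2l10 and Bax. On the log2 scale these differences of the sums were 0.67 and 0.71, beside 0.26 for the median gene. Without Bcl2l10 and Bax they were 0.63 and 3.91, the latter being Bak1 alone with its 4 reads in IV 20% O2. The BH3-only genes summed to 6.05 ± 0.245 RPM per kb in IV 5% O2 and 6.21 ± 0.419 RPM per kb in IV 20% O2, which with RPM is a difference within counting error (-0.04 on the log2 scale). The class sums depend on scaling. The log2 differences of the survival, effector and BH3-only sums were 0.38, 0.42 and -0.33 under median-ratio scaling and 0.51, 0.53 and -0.29 under quantile normalization. The makeup of the BH3-only sum differed between the groups. Bbc3 and Pmaip1 made up 19.1% and 15.9% of the BH3-only sum in IV 5% O2, against 0% and 4.90% in IV 20% O2, where Bid alone made up 82.0%.

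**Figure D3:**
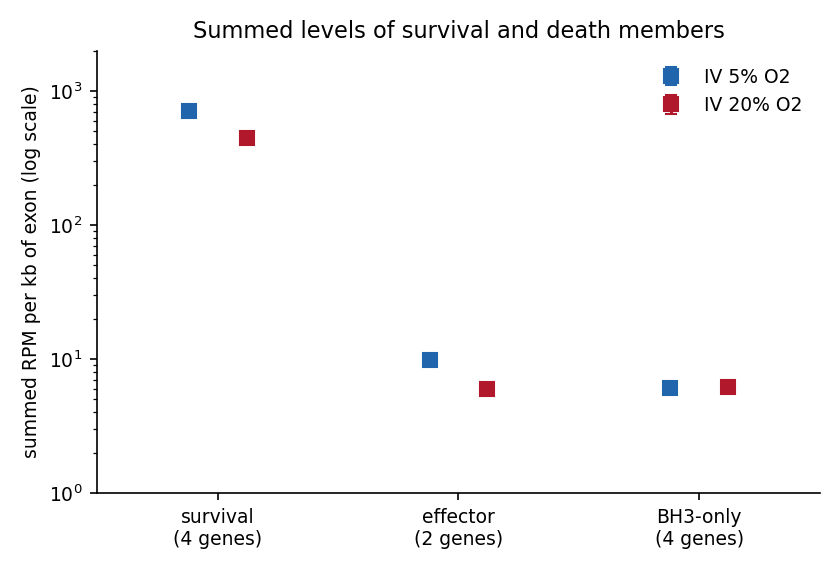
Summed levels of the survival members, the effectors and the BH3-only genes, in RPM per kb of annotated exon on a log scale, with 1 square per pooled column (blue for IV 5% O2, red for IV 20% O2). Bars are 95% counting intervals and are smaller than most symbols. Survival members and effectors lie higher in IV 5% O2, and the BH3-only sums, 6.05 and 6.21, lie side by side.

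The ratio of survival to death transcript was 44.8 ± 1.40 in IV 5% O2 and 36.6 ± 2.23 in IV 20% O2. On the log2 scale it was 0.29 higher in IV 5% O2, with a counting interval from 0.19 to 0.39. Against the effectors alone the ratios were 72.3 ± 3.12 and 74.3 ± 7.45, within counting error of each other, and against the BH3-only genes alone they were 118 ± 4.81 and 72.0 ± 4.94. Without Bcl2l10 alone, a choice made after the data were seen, the survival to death ratio was 3.02 and 2.54, with a log2 change of 0.25. The direction of the ratio rested on a few genes. Without the most abundant member of each class (Bcl2l10, Bax and Bid) it was 14.7 in IV 5% O2 and 26.8 in IV 20% O2, and the log2 change turned to -0.87. Without Bid and Bad, a choice made after their overlaps were seen, it was 59.5 and 70.8, with a log2 change of -0.25.

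Single pairs of a survival and a death gene showed the same mixture. Of the 24 pairs, 20 had reads of both genes in both groups, and the survival to death ratio per length was higher in IV 5% O2 in 8 of them and lower in 12. In the other 4 pairs, those with Bbc3, it was lower in IV 5% O2 even with Bbc3 set at the limit of 3 reads in IV 20% O2, so that over all 24 pairs it was higher in 8 and lower in 16. The intervals of the 2 groups were apart in 18 pairs, 7 with the higher ratio in IV 5% O2 and 11 with the lower. The 24 pairs combine only 10 genes, so they are not separate observations. Each pair with the lower ratio in IV 5% O2 held Bcl2, Bak1, Bbc3 or Pmaip1, except that of Mcl1 with Bax. The ratio of Bcl2l10 to Bax was 71.9 in IV 5% O2 (68.7 to 75.2) and 69.6 in IV 20% O2 (63.0 to 77.2), which overlap. The ratio of Bcl2l1 to Bax was 2.93 (2.79 to 3.07) and 1.71 (1.53 to 1.92), whereas that of Mcl1 to Bax was 2.25 (2.14 to 2.37) and 3.39 (3.05 to 3.78). Mcl1 stood 21.6-fold above Pmaip1, whose product opposes it, in IV 5% O2 (19.4 to 24.1) and 66.6-fold above it in IV 20% O2 (47.5 to 96.4).

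The low death genes Bak1, Bbc3 and Pmaip1 lay in the range in which transcripts of other ovarian cells were also found, many of them higher in IV 5% O2 as well. Bcl2 and Bad lay in the same range and had the lower value there. Of 18 theca and stroma markers, 10 were measured and 9 of them had the higher value in IV 5% O2, as 62.6% of all genes compared did. Their summed level was 40.1 RPM there and 6.68 RPM in IV 20% O2. Among them, the steroidogenic enzyme gene Cyp11a1 was at 16.4 RPM in IV 5% O2 against 0.122 RPM in IV 20% O2, and no reads of Dcn, Vim and Col1a2 were counted in IV 20% O2. Over all genes of the table, 350 had no reads in IV 20% O2, against 211 in IV 5% O2, the deeper column. Of 10 granulosa markers, 7 were measured and 6 were higher in IV 5% O2, with sums of 42.9 and 29.8 RPM. In this list Inha had no reads in IV 20% O2 and Fshr none in IV 5% O2. The 4 measured endothelial markers summed to 61.2 RPM in IV 5% O2 against 37.5 RPM in IV 20% O2, the 3 macrophage markers to 17.9 and 21.1 RPM (2 of them higher in IV 5% O2), and the erythroid marker Alas2 was at 1.32 and 1.57 RPM. The markers with the lower value in IV 5% O2 were Nr2f2, Fshr, Flt1, Csf1r and Alas2, and no reads of the macrophage marker Lyz2 and the endothelial marker Kdr were counted in IV 20% O2. The part of such cells in the levels of the members was not tested. In pooled RNA, fewer cells of a type and less RNA per cell cannot be told apart.

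The promoters of the 3 members at least 2-fold apart are shown so that genes differing in opposite directions can be read side by side. Each line gives the 250 bases before a RefSeq transcript start in GRCm38.p6, from 5′ to 3′ on the strand of the gene, with CpG dinucleotides, the bases whose methylation the study followed in other libraries, in capitals. They lie at chr1:106714291-106714540 on the - strand for Bcl2, at chr2:152831729-152831978 on the - strand for Bcl2l1 and at chr7:16309333-16309582 on the + strand for Bbc3, whose RefSeq start is 1190 bases from the start of the gene in the table.
Bcl2: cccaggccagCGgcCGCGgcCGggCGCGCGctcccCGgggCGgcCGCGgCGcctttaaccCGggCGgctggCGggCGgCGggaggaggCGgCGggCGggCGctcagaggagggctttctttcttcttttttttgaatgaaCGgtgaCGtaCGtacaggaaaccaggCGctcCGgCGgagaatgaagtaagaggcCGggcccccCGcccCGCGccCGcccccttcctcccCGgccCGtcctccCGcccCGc
Bcl2l1: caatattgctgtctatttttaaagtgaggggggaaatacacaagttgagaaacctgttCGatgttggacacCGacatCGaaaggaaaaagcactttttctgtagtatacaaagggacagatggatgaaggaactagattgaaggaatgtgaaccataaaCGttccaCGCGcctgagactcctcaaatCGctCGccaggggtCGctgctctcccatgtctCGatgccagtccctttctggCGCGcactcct
Bbc3: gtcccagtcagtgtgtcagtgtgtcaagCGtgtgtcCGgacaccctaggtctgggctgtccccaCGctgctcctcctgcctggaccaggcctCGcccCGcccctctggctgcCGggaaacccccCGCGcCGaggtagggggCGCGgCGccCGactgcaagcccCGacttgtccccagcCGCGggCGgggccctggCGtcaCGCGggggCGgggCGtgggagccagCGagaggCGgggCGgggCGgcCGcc

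Bcl2 and Bbc3, which differed in opposite directions, both have promoters dense in CpG. The window of Bcl2 holds 36 CpG, more than 97.4% of the 32851 RefSeq windows, and that of Bbc3 holds 27, more than 91.4%. The window of Bcl2l1 holds 12, more than 66.5% of windows. RefSeq windows were matched for 8 of the 10 members (not for Bcl2l10 and Pmaip1), and all 8 had at least the median number of CpG, which was 6.

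The windows were also searched on both strands for the letters of known response elements. The letters ACGTG, 1 form of the core of the hypoxia response element, were found in 1 of 8 members, Bax, and in 16.6% of all windows. The form GCGTG, which can be read in the Bbc3 window above, was not searched, so the count does not say which members hold the element. In Bax the letters ACGTG lie within the last 30 bases before the start (chr7:45466899-45466928, - strand), shown with the matched letters in capitals.
Bax: cctgcagcgagcgatgatgatCACGTGact
The capitals CACGTG read the same on both strands and so hold the core once on each, starting 9 and 8 bases before the transcript start. None of the 8 windows held the ATF4-CHOP element TGATGNAA (3.45% of all windows), the FOXO site GTAAACA (3.17%), CCAAT (33.8%) or TATAAA (12.4%). Other annotated windows of Bbc3 hold the letters ACGTG, the FOXO site and the CCAAT letters, and another of Bad holds the CCAAT letters. A match of letters is a description and no evidence of binding.

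Genes around the members were described from 7 lists of the cell death pathway with 90 genes, of which 78 were compared. At least 2-fold higher in IV 5% O2 were 15 of them (19.2%, beside 18.7% of all genes) and at least 2-fold lower were 4 (5.13%, beside 9.22%). With median-ratio scaling 10 were higher and 5 lower, where 12.5% and 13.1% of all genes were. With quantile normalization 8 were higher and 5 lower, where 12.3% and 12.5% of all genes were.

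Among the 13 compared genes of the wider BCL2 family, 4 were at least 2-fold higher in IV 5% O2 and 1 was lower, where 18.7% and 9.22% of all genes were, and the median difference on log2(RPM + 1) was 0.70, beside 0.26. The higher ones were Bik (12.7 against 3.87 RPM) and Bmf (3.59 against 0.905 RPM), both BH3-only genes, Bcl2l12 (5.13 against 1.39 RPM) and Bnip3 (48.5 against 18.6 RPM). Bnip3, a mitophagy receptor and well known target of HIF1, has copies of 18.3% of its exon windows elsewhere in the genome, so its reads are uncertain. The lower one was the BH3-only gene Hrk, with 1.40 RPM in IV 5% O2 against 4.53 RPM in IV 20% O2. By the mean of both groups, the most abundant genes of this list per length were Bnip3l and Bcl2l13. They differed little, at 0.23 each on log2(RPM + 1), although 14.1% of the exon windows of Bnip3l occur elsewhere too. In IV 5% O2 alone, Bnip3, at 21.4 RPM per kb, was above Bcl2l13, at 17.5 RPM per kb. Bcl2l11, the gene of the BH3-only protein BIM, was at 32.4 RPM in IV 5% O2 against 19.5 RPM in IV 20% O2, a difference of 0.71 on log2(RPM + 1).

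Downstream of mitochondria, 7 genes of the apoptosome and caspases were compared, and 2 were at least 2-fold higher and 1 lower, beside the same 18.7% and 9.22% of all genes. Their median was 0.18 on log2(RPM + 1) and turned to -0.09 with median-ratio scaling. One of the higher genes was Casp8, which acts below death receptors and upstream of Bid, at 19.0 RPM in IV 5% O2 against 7.68 RPM in IV 20% O2. Relative to the median gene, the difference of Casp8 on log2(RPM + 1) was 0.95, short of 2-fold. Cycs, the gene of cytochrome c, was lower in IV 5% O2, at 15.3 against 54.4 RPM, but 27.9% of its exon windows occur elsewhere in the genome. Apaf1 and Casp9, which form the apoptosome with cytochrome c, were near equal, at 11.5 and 11.8 RPM and at 9.77 and 8.24 RPM.

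Of the 9 caspase inhibitors and their antagonists, Birc7 was at least 2-fold higher (2.57 against 0.563 RPM) and Birc6, a large inhibitor of apoptosis, at least 2-fold lower (115 against 265 RPM), beside 18.7% and 9.22% of all genes. Relative to the median gene, Birc7 was at 0.93 on log2(RPM + 1), short of 2-fold, and Birc6 at -1.45. The most abundant inhibitors per length, Birc5 and Birc3, were at 67.7 and 62.1 RPM per kb in IV 5% O2 and at 58.8 and 58.0 RPM per kb in IV 20% O2. The median of this list was 0.10 on log2(RPM + 1), which became -0.19 under median-ratio scaling and -0.14 under quantile normalization.

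**Figure D4:**
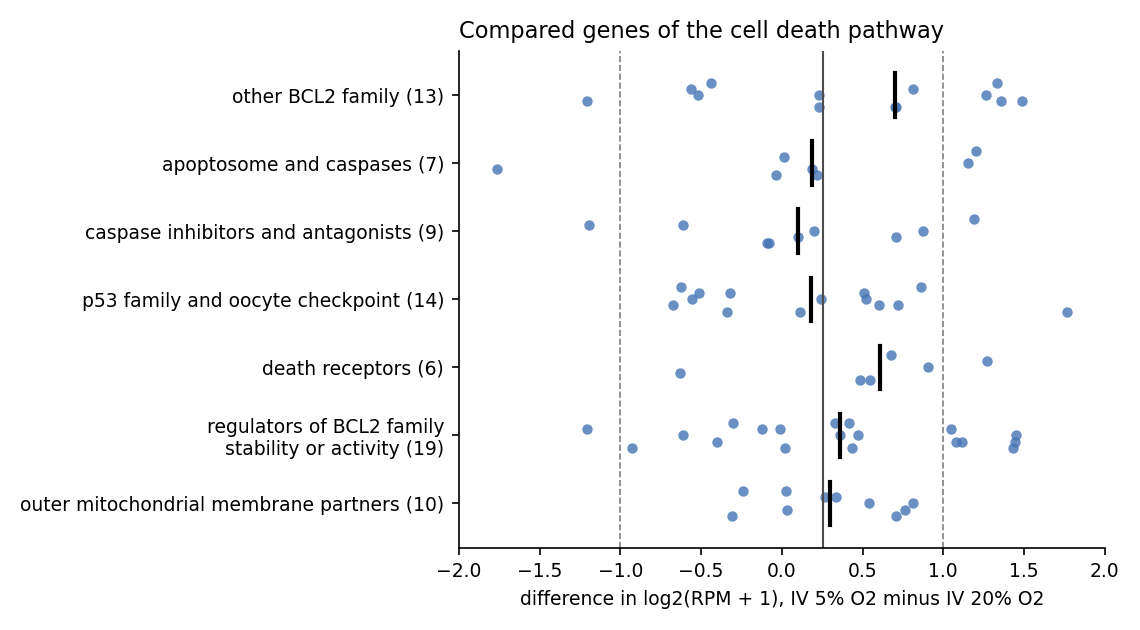
Differences in log2(RPM + 1), IV 5% O2 minus IV 20% O2, of the compared genes in 7 lists of the cell death pathway, with 1 point per gene and the number compared in brackets. Short bars are the list medians, the solid line is the median of all genes (0.26) and dashed lines mark 2-fold. Points lie on both sides of the solid line in every list, and the medians range from 0.10 for the caspase inhibitors to 0.70 for the wider BCL2 family.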

How the data were processed

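Class IV oocytes were profiled by RNA-seq in 4 libraries, 2 per group; the 20 bisulphite libraries of the study were not analysed here. The authors trimmed the reads, aligned them to mm10 (GRCm38) with TopHat (the submitters' processing notes name TopHat2 2.0.9), merged reads across exons in SeqMonk and deposited log2 values, 1 pooled column per group. How the libraries were combined is not given in the sources used here. The methods describe a correction for length. However, 99.98% of the linear values of each column were whole multiples of 1 read (within 0.1 read), the same step for every gene, so the deposited log2 values were read as log2 RPM. Genes with no read carry the value of 0.9 read in the table, which was replaced by 0. Another value column belongs to none of the mapped samples (1 column) and was not used.

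Genes averaging at least 1 RPM were compared on log2(RPM + 1) and called at 2-fold. Where a name had several rows, the row with the highest mean was used. A count test was not run, since 1 pooled column per group leaves no replicates. Exon lengths came from GENCODE M21 on GRCm38, whereas the study names an oocyte transcript annotation, not used here; levels per kb rest on this choice. Errors of class sums are 95% counting intervals. Windows of 100 bases in exons were searched in 22 chromosome sequences. Promoter sequences are from RefSeq (GRCm38.p6), and of several starts the one nearest to the gene start in the table was taken. The members and lists were chosen with earlier results of these data known. Named were every member, each gene of the pathway lists at least 2-fold apart, the 2 most abundant per length of each list (by the mean of both groups), and marker genes needed to say which are at 0. A gene of the pathway lists that this rule names is not reported here. The other genes named (Bcl2l11, Apaf1, Casp9, Trp63, Mff and genes that overlap a member) were chosen after their values were seen. The intervals and calls were tested on simulated data. Alternatives were pseudocounts of 0.1 and 5 RPM, other filters (none, or a mean of 5 RPM), scaling by median ratio or by quantiles, summed rows and other lengths. Scripts ran in Python 3.11.15 with scipy 1.17.1, pandas 2.3.3 and numpy 2.4.6, sequences were searched with numba 0.67.0, and plots were drawn with matplotlib 3.10.9.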

Additional observations from a re-analysis of the deposited data

How the results depend on the processing

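No paired analysis was possible because each group is 1 pooled column that carries no replicate number, and for the same reason no library could be left out. With a pseudocount of 5 RPM, 1202 genes were at least 2-fold higher and 706 lower, 1 member was higher (Bcl2l1), 0 were lower, and 6 genes of the pathway lists were higher. With a mean of at least 5 RPM, 1691 genes were higher, and of the 5 members then compared 1 was higher (Bcl2l1) and 0 were lower. Without a filter 3342 genes were higher, Bak1 among them, and 1533 lower. A pseudocount of 0.1 RPM gave 3326 and 1625 and added Pmaip1. Median-ratio scaling gave 1841 higher and 1926 lower genes, with 10 higher genes in the pathway lists, and quantile normalization 1809 and 1837, with 8 higher genes in the pathway lists. Mcl1 turned to -0.25 and -0.17 on log2(RPM + 1) under these scalings. So did the list medians of the caspase inhibitors (-0.19 and -0.14) and the p53 family (-0.104 and -0.0189), and under median-ratio scaling that of the caspases (-0.0928).

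The survival to death ratio in IV 5% O2 and IV 20% O2 was 29.1 and 20.6 without division by length (log2 change 0.50) and 33.3 and 25.7 per kb of the longest transcript. It was 14.7 and 26.8 without the most abundant member of each class, where its log2 change turned to -0.87 and that of the BH3-only sum to 1.25. Without Bcl2l10 it was 3.02 and 2.54, and without Bid and Bad it was 59.5 and 70.8, with log2 changes of -0.25 and, for the BH3-only sum, 2.80. The level of a gene without reads is limited by depth, which is lower in IV 20% O2.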

Other observations

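The genes that act on BCL2 family proteins were mixed in direction. Of 19 regulators of their stability or activity, 6 were at least 2-fold higher in IV 5% O2 and 1 was lower, where 18.7% and 9.22% of all genes were. Their median was 0.36 on log2(RPM + 1), beside 0.26 for all genes. The higher ones were the kinase genes Akt1 (217 against 79.7 RPM), Akt2 (90.2 against 41.1 RPM) and Pim1 (12.4 against 3.91 RPM), whose products phosphorylate BAD, the 14-3-3 gene Ywhae (223 against 105 RPM), and the co-chaperone genes Bag1 (34.0 against 11.8 RPM) and Bag6 (63.8 against 30.3 RPM). The lower one was Huwe1, a ubiquitin ligase of MCL1, at 253 RPM in IV 5% O2 against 584 RPM in IV 20% O2. Usp9x, which removes ubiquitin from MCL1, was at 1436 and 1768 RPM, and the 14-3-3 gene Ywhaz at 420 and 457 RPM. They were the most abundant of the list per length. However, 39.0% and 29.2% of their exon windows occur elsewhere in the genome, as do 10.4% of those of Akt2.

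Of 14 genes of the p53 family and the oocyte checkpoint, 1 was at least 2-fold higher, Trp53bp1, at 494 RPM in IV 5% O2 against 144 RPM in IV 20% O2, and 0 were lower, where 18.7% and 9.22% of all genes were. Trp63, which encodes the guardian of oocyte quality upstream of Bbc3 and Pmaip1, was at 33.9 and 28.4 RPM, a difference of 0.25 on log2(RPM + 1) that is close to that of the median gene, and was named after its value was seen. The most abundant of this list per length were the kinase gene Chek1 (95.8 against 67.3 RPM per kb) and Mdm4, an inhibitor of p53 (35.2 against 51.6 RPM per kb). Of 6 death receptor genes compared, 1 was at least 2-fold higher, Tnfrsf10b, at 2.29 RPM in IV 5% O2 against 0.367 RPM in IV 20% O2, and 0 were lower, beside the same shares of all genes. The most abundant of them per length, Cflar and Ripk1, were at 14.3 and 6.08 RPM per kb in IV 5% O2 and at 10.2 and 3.20 RPM per kb in IV 20% O2. None of the 10 compared partners at the outer mitochondrial membrane was 2-fold apart in either direction, as 27.9% of all genes were, and their differences on log2(RPM + 1) ran from -0.31 for the fission gene Dnm1l to 0.81 for Mff.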
